A study of Mus musculus with 32 samples.

Results

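Distal regions were taken as the autosomal regions of open chromatin whose midpoint lay more than 50 kb from the span of every protein-coding gene in the mouse build mm10. Of the 99037 regions counted across the developmental series, 96960 were autosomal and 12150 of these were distal. They were set beside 24757 regions outside all gene spans but within 50 kb of a gene (near intergenic), 43903 inside gene spans and 16150 lying no more than 1 kb from a span's start or end (gene ends). The rule used position and no measured level, so the levels below are independent of it.

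The data were ATAC-seq libraries, in which the transposase Tn5 cuts open DNA and tags it for sequencing, from blood stem and progenitor cells of C57BL/6 mice labelled LSK (in common use, lineage-negative, Sca-1-positive and Kit-positive cells). Fetal groups were E12.5 FL, E12.5 PL and E16.5 FL. Marrow came from perinatal mice and from mice 1w, 3w, 4w, 6w or 8w old. Each group had 3 libraries, apart from 3w BM, which had 2, and all shared the strain and the cell phenotype. FL and BM are the usual short forms of fetal liver and bone marrow, while the labels do not spell out PL. A further 6 libraries came from E12.5 FL cells kept for 2 h in hepatocyte-conditioned medium (co-SHI, 3 libraries, hepatocytes of E16.5) or in basic medium (SHI, 3 libraries). The labels give no sex, no genetic change and no number of animals pooled per library.

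Most DNA elements that act on a gene from afar are enhancers: stretches bound by transcription factors that loop to a promoter, often far along the chromosome. Several genes of blood formation, among them Myc, lie next to gene deserts that hold such elements. Wide stretches without genes also hold antigen receptor gene segments, long noncoding RNAs (lncRNAs) and satellite repeats near chromosome ends. A nearby gene is named here to say where a region lies, and no target of any region was measured.

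Total counts per library ran from 2845113 (1w BM 2) to 10167340 (1w BM 3). Levels are CPM, counts scaled to library size with TMM factors, and a region was called where the adjusted p of edgeR's quasi-likelihood test with Benjamini-Hochberg adjustment was under 0.05. Summed levels near the 4 LSK markers Kit, Ly6a, Ptprc and Cd34 were 304 to 375 CPM in E12.5 FL, 328 to 349 CPM in E12.5 PL, 280 to 325 CPM in E16.5 FL and 339 to 441 CPM in marrow. Endothelial markers summed to 387 to 419 CPM in E12.5 FL and to 712 to 924 CPM in E12.5 PL over 6 genes, all 6 of them with a region. Trophoblast markers summed to 283 to 297 CPM in E12.5 FL and 414 to 601 CPM in E12.5 PL, over 8 genes, all with a region. All 6 endothelial genes had lower means in E12.5 FL, for example 28.2 CPM in E12.5 FL against 99.7 CPM in E12.5 PL at Tek. Of the trophoblast genes Krt19 had 3.26 CPM in E12.5 FL against 18.8 CPM in E12.5 PL, while Hand1 had 25.5 CPM in E12.5 FL against 24.7 CPM in E12.5 PL, and Cdx2 52.7 CPM in E12.5 FL against 53.4 CPM in E12.5 PL. The LSK markers went both ways, with 113 CPM in E12.5 FL against 44.5 CPM in E12.5 PL at Ptprc and 79.8 CPM in E12.5 FL against 160 CPM in E12.5 PL at Kit. Neuronal markers summed to 156 to 186 CPM in E12.5 FL and 204 to 257 CPM in E12.5 PL, and muscle markers to 31.7 to 45.7 CPM in E12.5 FL and 41.0 to 49.5 CPM in E12.5 PL. Hepatocyte markers ran from 119 to 175 CPM over all groups. Serpina1a and Actc1 had no region. The part of these other cell types in the results below was not tested. In libraries of pooled cells, fewer open cells and less opening per cell cannot be told apart.

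The sequences printed are those for which a distal region could be tied to an annotated transcript, from RefSeq, build GRCm38.p6. The region chr7:90059769-90060744, between Eed and Picalm, covers the whole window of 250 bases before to 50 after the start of the lncRNA gene Gm32164, and was called higher in perinatal BM than in E16.5 FL. The region chr16:30008698-30009422, on the Hes1 side of the desert between Opa1 and Hes1, overlaps by 19 bases the start window of the lncRNA 4632428C04Rik, and was called lower in E12.5 FL than in E12.5 PL. Capitals mark GGAA or its reverse complement TTCC, the core read by ETS factors such as PU.1. The Gm32164 window (minus strand, chr7:90060413-90060712) holds TTCC at 3 places and GGAA at none. The 4632428C04Rik window (plus strand, chr16:30008417-30008716) holds GGAA at 4 places and TTCC at none. All 4 lie outside the distal region, which shares only the last 19 bases of that window. On either strand, the core is in 99.5% of the 430 start windows of distal lncRNA genes and in 96.0% of all 32817 windows in the table.
Gm32164: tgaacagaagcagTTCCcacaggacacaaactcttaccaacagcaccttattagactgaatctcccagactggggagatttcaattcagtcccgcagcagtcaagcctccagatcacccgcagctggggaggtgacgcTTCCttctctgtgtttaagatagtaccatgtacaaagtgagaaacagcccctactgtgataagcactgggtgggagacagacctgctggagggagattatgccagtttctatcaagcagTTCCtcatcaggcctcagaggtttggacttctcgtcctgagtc
4632428C04Rik: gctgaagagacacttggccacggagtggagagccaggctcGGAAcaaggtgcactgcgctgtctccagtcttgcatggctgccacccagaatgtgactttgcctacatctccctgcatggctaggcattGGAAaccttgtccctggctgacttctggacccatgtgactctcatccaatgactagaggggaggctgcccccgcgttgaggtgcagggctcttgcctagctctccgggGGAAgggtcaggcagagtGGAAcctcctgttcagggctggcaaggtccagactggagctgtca

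A pair of distal regions lay close to microRNA genes known in blood cells and are shown for that reason, chosen after their values were seen. Capitals mark the seed, bases 2 to 8, which pairs with target messages. The microRNAs miR-29a and miR-29b share the seed AGCACCA, and miR-17 and miR-20a of the Mir17 cluster share AAAGUGC.
mmu-miR-29a-3p: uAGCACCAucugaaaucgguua
mmu-miR-29b-3p: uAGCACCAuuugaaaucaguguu
mmu-miR-17-5p: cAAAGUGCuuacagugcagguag
mmu-miR-20a-5p: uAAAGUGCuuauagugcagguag

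Distal regions were weakly open and open in few libraries, much as other regions away from gene ends were. Their median level was 3.3 CPM, against 4.13 CPM for near intergenic regions, 4.1 CPM inside genes and 18 CPM at gene ends, and their median width was 536 bp. The 5th and 95th percentiles of their levels were 1.3 and 17.1 CPM. The median distal region overlapped an authors' peak in 2 of the 26 libraries, against 3 for near intergenic regions, 2 inside genes and 21 for gene ends. No library had a peak at 2226 distal regions (18.3%), beside 17.4% of near intergenic regions and 17.5% of those inside genes. All 26 had one at 141 distal regions (1.16%), beside 1.47% of near intergenic regions, 2.01% of those inside genes and 4512 gene ends (27.9%).

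The median distance of a distal region to the nearest protein-coding gene was 116 kb, the 90th percentile 380 kb and the largest 2188 kb. At the threshold, the nearest member lay 50003 bp from a gene and had 3.99 CPM, and the nearest region outside lay 49991 bp away and had 3.16 CPM. Some 2786 members (22.9%) lay inside the span of an lncRNA, 196 (1.61%) in an antigen receptor locus, 127 (1.05%) in a pseudogene and 9044 (74.4%) in no gene span of any kind. The share of a chromosome's regions that were distal ran from 6.5% on chromosome 7 to 19.7% on chromosome 13.

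Distal regions took a smaller share of the counts in marrow than in fetal liver. By group in stage order the share was 8.14 ± 0.7% in E12.5 PL, 10.2 ± 0.68% in E12.5 FL, 10.8 ± 0.72% in E16.5 FL, 8.96 ± 0.75% in perinatal BM, 7.81 ± 0.9% in 1w BM, 7.85 ± 0.12% in 3w BM, 7.94 ± 0.26% in 4w BM, 7.7 ± 0.43% in 6w BM and 7.95 ± 0.44% in 8w BM (SD, n = 3, n = 2 for 3w BM). The 17 marrow libraries lay between 7.21 and 9.77% and the 6 fetal liver libraries between 9.78 and 11.5%, so the groups did not overlap, though the highest marrow library (perinatal BM 1) almost touched the lowest fetal liver library (E12.5 FL 3). The difference of means was −2.44 percentage points (two-sided exact permutation test, p = 2e-05, adjusted over 5 comparisons 9.9e-05). Near intergenic regions moved the same way by less, with 16.7 ± 0.32% in marrow and 18 ± 0.55% in fetal liver, while gene ends held 41.0 ± 1.2% in marrow and 36.4 ± 1.9% in fetal liver. Regions at which no library had a peak, of any class, held 3.79 ± 0.46% of marrow counts and 6.04 ± 0.59% of fetal liver counts. The part of this background signal in the distal share was not tested.

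In E12.5 FL the shares were 9.83, 11 and 9.78%, and in E12.5 PL they were 8.13, 7.45 and 8.84%, a difference of 2.06 points. All FL libraries were above all PL libraries, and the exact permutation test gave p = 0.1, the smallest that 3 against 3 libraries allow. Perinatal BM had 9.77, 8.28 and 8.82%, and E16.5 FL had 11.5, 10.1 and 10.7%, a difference of −1.82 points without overlap (exact permutation p = 0.1). The other comparisons overlapped: E16.5 FL minus E12.5 FL was 0.584 points (exact permutation p = 0.4), and 6w and 8w BM averaged 7.83 ± 0.41% against 8.38 ± 0.97% in perinatal and 1w BM (exact permutation p = 0.24, n = 6 each).

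Much of the share came from a handful of places. A set of 17 distal regions had mean levels above 252 CPM, the level of the highest gene-end region, and together held 0.941 to 3.46% of a library's counts. The highest was chr2:98666462-98667003, 1040 kb from its nearest gene Lrrc4c, with group means of 4022 CPM in E12.5 PL, 5083 in E12.5 FL, 6438 in E16.5 FL and 2920 in 1w BM. Next came chr2:98662117-98662936, also between Lrrc4c and Iftap, with a mean of 2080 CPM over the groups. After it came chr9:3000190-3001623 at the start of chromosome 9, with 1714 CPM in E12.5 PL, 2368 in E12.5 FL, 2943 in E16.5 FL and 1285 in 1w BM. Of the 17, 11 were highest in E16.5 FL and 5 in E12.5 PL. Those highest in PL included chr17:39843501-39844460, with 2074 CPM in E12.5 FL and 3599 in E12.5 PL. Without the 17, the marrow share was 6.67 ± 0.41% and the fetal liver share 7.62 ± 0.6% (exact permutation p = 0.0012, adjusted 0.0058), and the groups overlapped. Perinatal BM then had 7.28% and E16.5 FL 7.62% (exact permutation p = 0.4).

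A further set of 136 distal regions lay in the first 3.5 Mb of a chromosome, next to the centromere in mouse, and 7 of the 17 highest were among them. They held 0.66 ± 0.19% of marrow counts and 1.44 ± 0.23% of fetal liver counts. With these regions also left out, the marrow share was 6.48 ± 0.38% and the fetal liver share 7.12 ± 0.6%, and the adjusted exact permutation p was 0.059. With the distance taken from spans of every gene, which leaves 2666 regions, the difference between marrow and fetal liver was −0.377 points (exact permutation p = 0.00018). Which repeats these regions hold was not examined, since no genome sequence was used here.

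The share of peaks went the other way from the share of counts. Of the autosomal peaks deposited for each library, 8.88 ± 0.76% were distal in the 17 marrow libraries and 7.02 ± 1.7% in the 6 fetal liver libraries (exact permutation p = 0.0041, adjusted 0.02). E16.5 FL had 5.64, 6.0 and 5.86%, below every other library of the series. These libraries also had the fewest peaks, with 9134, 16572 and 14804 autosomal peaks against 49622 in 8w BM 2, and the part of the peak number in this share was not tested.

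**Figure D1:**
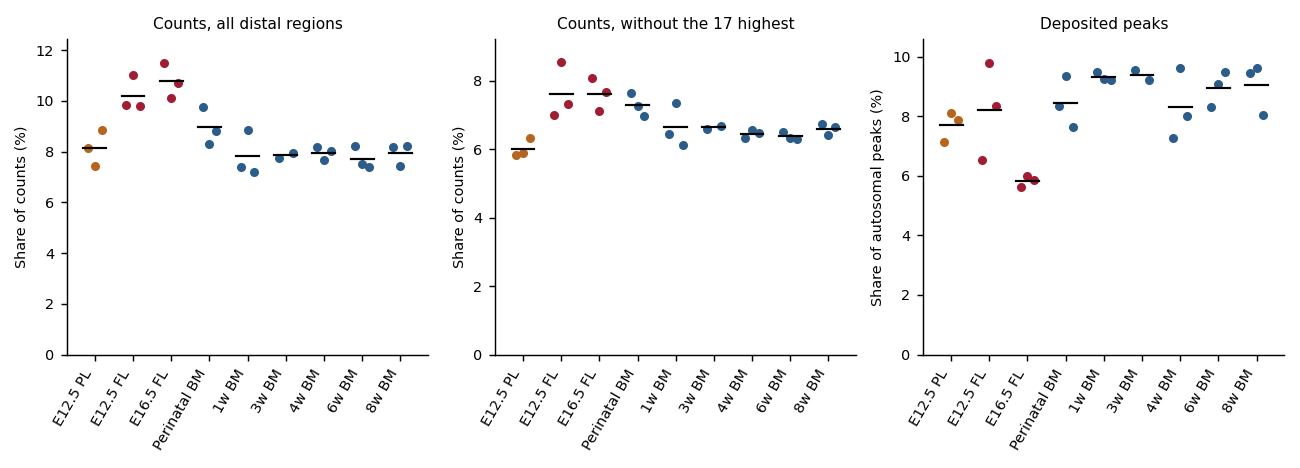
Share of each library's counts in distal regions (left), the same without the 17 highest regions (middle) and the share of its autosomal peaks that were distal (right), in percent, for 26 libraries in 9 groups. Points are libraries and short lines are group means. The E12.5 FL and E16.5 FL libraries stand at 9.78 to 11.5% on the left, while E16.5 FL is lowest on the right.

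About as many distal regions as regions of any kind differed between E12.5 FL and E12.5 PL, and more of them were higher in FL than lower under the scaling used. Over all regions tested, 49.4% were called between E12.5 FL and E12.5 PL, 23.1% higher in FL and 26.4% lower. Of the 12144 distal regions tested, of 99005 tested in all, 6304 (51.9%) were called: 3659 (30.1%) higher in FL and 2645 (21.8%) lower. The median log2 fold change of distal regions was 0.44, beside 0.09 for all regions and −0.46 for gene ends. The level of zero depends on scaling: with size factors the distal median was 0.23 beside −0.12 for all regions, with total counts 0.73 beside 0.38, and with loess offsets, which centre each level of signal separately, 0.24 beside −0.04. So the share of called distal regions that were higher in FL was 58.0% as fitted, 69.6% with total counts and 63.3% with loess offsets, but 48.3% with size factors and 47.5% with DESeq2.

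The further a region lay from genes, the more often it was called higher in FL. Between 50 and 100 kb, 26.8% of 5145 regions were called higher and 23.1% lower. Between 100 and 200 kb these were 28.9% and 22.5% of 3728 regions, between 200 and 500 kb 33.8% and 20.8% of 2555 regions, and beyond 500 kb 47.8% and 12% of 716 regions. With loess offsets the share higher ran 16.4, 18.4, 23.7 and 39.5% over the same steps. Median levels differed little, from 3.52 CPM in the nearest to 3.0 CPM in the farthest step. No test was made of this trend, since neighbouring regions are not independent.

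**Figure D2:**
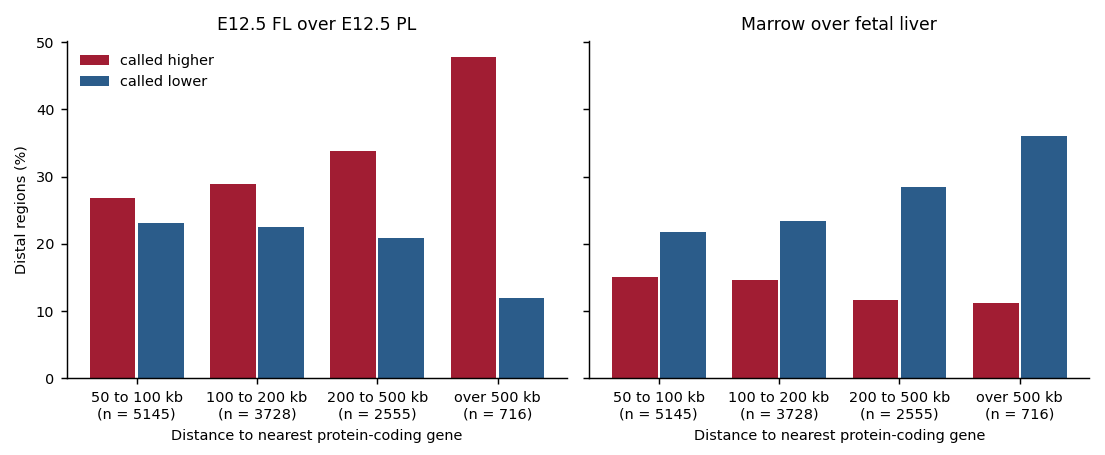
Percent of tested distal regions called higher (red) and lower (blue) by distance to the nearest protein-coding gene, comparing E12.5 FL with E12.5 PL, and marrow with fetal liver. The 716 regions over 500 kb from a gene were 47.8% higher in E12.5 FL on the left and 36.0% lower in marrow on the right.

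Median changes also differed between steps of signal level, but the lowest steps are shaped by the count filter. It kept a region only where some libraries reached its minimum count. A region of low mean could thus pass through the group where it was high, and its change is not read as a result. When all regions were divided into 10 equal steps of mean level, the median log2 fold change of distal regions was −2.02 in the lowest step (0.606 to 1.81 CPM) and 0.97 in step 8 (8.3 to 12.8 CPM), against −1.95 and 0.54 for near intergenic regions. In the highest step it was 0.78 for 314 distal regions and 0.07 for 939 near intergenic regions.

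**Figure D3:**
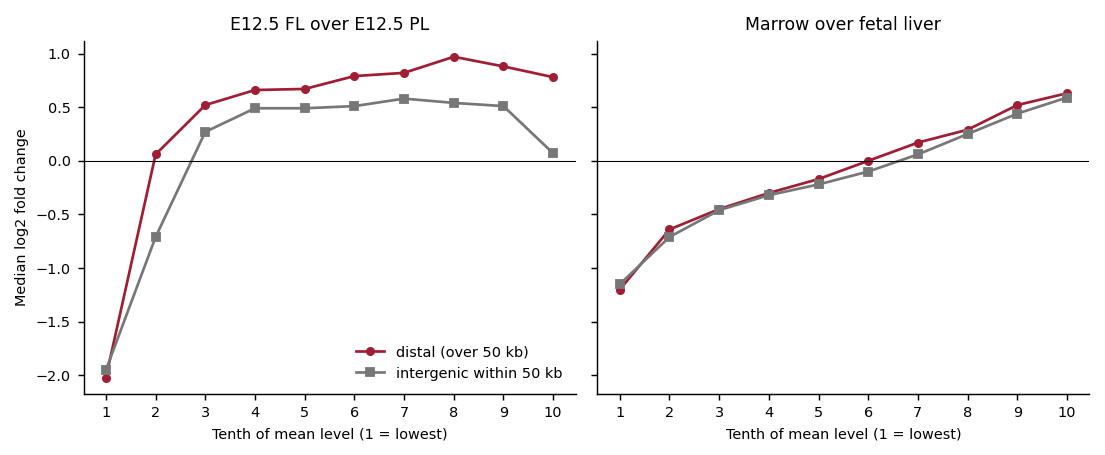
Median log2 fold change of distal (red circles) and near intergenic (grey squares) regions in 10 steps of mean level, comparing E12.5 FL with E12.5 PL, and marrow with fetal liver. Both classes run from below 0 at low levels to above 0 at high levels, and distal regions stand above near intergenic regions in steps 2 to 10 on the left. Regions in the lowest steps could pass the count filter through the group where they were high.

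The region higher in FL with the smallest p lay 74.4 kb beyond Kit, the receptor of stem cell factor and part of the LSK definition, on the side of Kdr, the receptor of VEGF. The region chr5:75730597-75731731 had 40.1, 39.3 and 40.7 CPM in E12.5 FL and 3.85, 7.43 and 5.55 CPM in E12.5 PL. Its log2 fold change was 2.82 (SE 0.22, edgeR adjusted p = 1.9e-14). Regions named per developmental comparison had to show no overlap between the libraries compared. The lack of overlap, here and at the named regions below, is therefore a condition of their choice and not a result. The region at the start of Kit itself had 24.9 ± 3.8 CPM in FL and 24.9 ± 1.5 CPM in PL (SD, n = 3 each, log2 fold change 0.00), and the 16 regions within 50 kb of Kit summed to a mean of 79.8 CPM in FL and 160 CPM in PL. The Kit neighbourhood thus held a distal region that was higher in FL beside near regions that were lower in sum. In later stages the distal region kept a level of 33.2 to 44.0 CPM in E16.5 FL and 45.2 to 52.6 CPM in perinatal BM.

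Among the next regions higher in FL, chr12:12496437-12498022 lay in the desert between Cyria and Mycn, which encodes a growth-promoting transcription factor of the Myc family. It had 51.4, 76.8 and 55.7 CPM in FL and 13.0, 12.6 and 11.6 CPM in PL (log2 fold change 2.3, SE 0.19). The region chr17:79954539-79955738, 74.3 kb from Hnrnpll, a splicing regulator of lymphocytes, had 36.7, 37.9 and 42.2 CPM in FL and 7.7, 7.65 and 6.48 CPM in PL (2.42, SE 0.21). Neither pair of groups overlapped, as the naming rule required. The region chr6:94760675-94761290, 60.7 kb from Lrig1, a membrane protein that restrains growth factor receptors, had 34.2, 44.7 and 36.3 CPM in FL and 6.25, 7.88 and 6.71 CPM in PL (2.46, SE 0.22). The largest of these changes was at chr4:89369099-89369633, 58.3 kb from Cdkn2b, an inhibitor of the cell cycle, with 13.8, 18 and 18.6 CPM in FL and 1.92, 1.13 and 1.39 CPM in PL (3.49, SE 0.32). The start of Cdkn2b moved the opposite way, at 13.5 ± 1.3 CPM in FL and 41.8 ± 9.4 CPM in PL (log2 fold change −1.63, edgeR adjusted p = 4.8e-08).

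Regions lower in FL included chr3:52197923-52198879, 69.9 kb from Foxo1, a transcription factor of stem cell quiescence and lymphoid development. It had 6.11, 2.81 and 6.38 CPM in FL and 48.3, 60.3 and 41.4 CPM in PL (log2 fold change −3.29, SE 0.27, edgeR adjusted p = 4.6e-14). The start of Foxo1 differed less, at 34.4 ± 8.9 CPM in FL and 46.3 ± 6.4 CPM in PL (−0.43, adjusted p = 0.055). The region chr16:30008698-30009422, which shares only the end of the lncRNA window printed above, lies 56.3 kb from Hes1, a repressor that Notch signalling switches on. It had 8.83, 11.2 and 8.59 CPM in FL and 53.9, 59.4 and 40.3 CPM in PL (−2.42, SE 0.24). The region chr13:5803538-5804106, 57.7 kb from the zinc finger factor gene Klf6, had 4.08, 3.04 and 4.66 CPM in FL and 25.5, 53.3 and 31.5 CPM in PL (−3.22, SE 0.33). The FL libraries were below all PL libraries in each, as the naming rule required. Both other regions of this kind had little signal outside PL. The region chr16:42781734-42782234, on the Zbtb20 side of its desert, had 2.26, 1.17 and 2.21 CPM in FL and 38.5, 35.1 and 33.1 CPM in PL. The region chr18:33292788-33293288, between Stard4 and Nrep, had at most 0.702 CPM in FL and 35.4, 19.8 and 31.7 CPM in PL. Both met the naming rule on mean level through PL and could pass the count filter through it. Their low level elsewhere is therefore not read as a result.

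**Figure D4:**
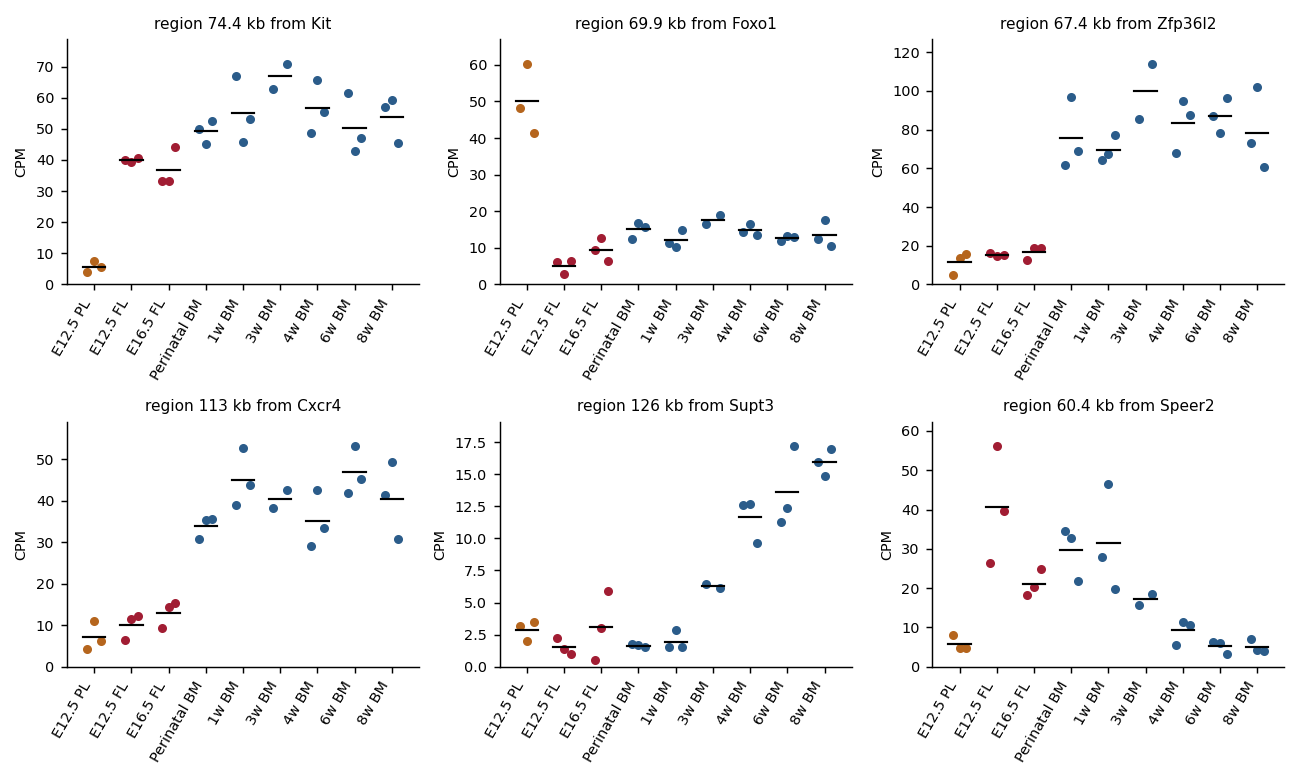
Levels in CPM of 6 distal regions in each of 26 libraries by group, titled by the distance to a flanking gene; points are libraries and short lines are group means. The region beyond Kit was at 39.3 to 40.7 CPM in E12.5 FL against 3.85 to 7.43 CPM in E12.5 PL, and the region near Zfp36l2 at 60.5 to 114 CPM in marrow against 12.8 to 19 CPM in fetal liver.

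Distal regions lay in groups. Joining members no more than 100 kb apart gave 2857 groups, of which 1112 were a single region and 1235 held at least 3. Those 1235 clusters held 10018 members (82.5%), and 290 of them had 10 or more. In E12.5 FL against PL, 415 clusters had at least 3 members called higher in FL, and in 191 of them none was lower. At least 3 were lower in 292 clusters, and in 67 of them none was higher. These counts are as fitted. Clusters are named below by the protein-coding genes on either side, and their levels are sums over members, given with no test because their members chose them.

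The largest cluster was the upstream part of the immunoglobulin heavy chain locus Igh, which B cells cut and join to make antibodies. It held 67 regions over 1071 kb (chr12:114909758-115980982, between Adam6a and Zfp386), many inside Ighv1 variable segments. Summed levels were 298, 391 and 297 CPM in E12.5 FL and 130, 77.0 and 131 CPM in E12.5 PL. All FL libraries were above all PL libraries, 40 members were called higher in FL and none lower (20 and none with loess offsets). Over the whole Igh locus 59 of 111 distal regions were higher in FL and 1 lower, with a median log2 fold change of 1.23. The other receptor loci leaned the same way: 10 of 15 distal regions of Igk, 26 of 52 of Tcra/Tcrd, 9 of 14 of Tcrb and 3 of 4 of Tcrg were called higher in FL, with 4 lower in Tcra/Tcrd and none in the rest. Medians were 1.18 to 1.34, beside 0.44 for distal regions, of which 30.1% were higher, and 0.09 for all regions. Distal regions over 500 kb from a gene, part of Igh among them, had a median of 1.15 and 47.8% higher. The lean was thus not particular to the receptor loci.

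Among clusters with members lower in FL, the desert between Fam43a and Xxylt1 (26 regions, chr16:30655665-30873957) had sums of 70.2, 77.5 and 67.0 CPM in FL and 182, 172 and 199 CPM in PL, with 12 members lower and none higher (8 lower and 1 higher with loess offsets). The desert between Gap43 and Zbtb20 (14 regions, chr16:42444413-42785210) had 40.5, 48.2 and 54.5 CPM in FL and 165, 156 and 180 CPM in PL, with 10 members lower and 4 with loess offsets. The cluster beside Foxa2, a pioneer factor of liver and gut (13 regions, chr2:148114566-148338712), had 35.8, 47.5 and 37.0 CPM in FL and 133, 178 and 131 CPM in PL, with 10 members lower and 5 with loess offsets. None of these groups overlapped. The start of Foxa2 was lower as well (log2 fold change −1.55, edgeR adjusted p = 3.7e-07).

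The next largest clusters moved in both directions. That between Cd83 and Jarid2 (58 regions, chr13:43864368-44674475) had 9 members higher and 21 lower in FL (2 and 6 with loess offsets), and sums of 211, 203 and 223 CPM in FL and 330, 326 and 367 CPM in PL. The cluster next to Sox4, a factor of early lymphoid and stem cells (50 regions, Prl5a1 to Sox4, chr13:28313461-28887174), had 21 higher and 11 lower (12 and 5 with loess offsets), with 283, 276 and 285 CPM in FL and 232, 232 and 243 CPM in PL. Of the other large clusters, Gm5148 to Ankrd50 had 8 higher and 14 lower of 51, Serp2 to Lacc1 13 and 16 of 50, Gadd45g to Diras2 8 and 13 of 48, Adgrl2 to Adgrl4 14 and 14 of 46, and Rps24 to Zmiz1 10 and 18 of 45. With loess offsets these 5 had 5 and 9, 9 and 10, 2 and 11, 9 and 11, and 5 and 7.

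Distal regions were also grouped by the listed genes they flank. Lymphoid factors flanked 376 distal regions, of which 125 (33.2%) were higher in FL and 67 (17.8%) lower, with a median of 0.55, beside 0.44 for distal regions and 0.09 for all regions. Those with the most were Foxo1 (52 regions, 7 higher and 20 lower), Id2, an inhibitor of basic helix-loop-helix factors (51, with 25 and 5), and Zeb2, a repressor needed in several blood lineages (41, with 20 and 2). Stem cell and progenitor factors flanked 313 regions, 80 higher (25.6%) and 88 lower (28.1%), with a median of 0.13. Of these, Myc flanked 62, of which 12 were higher and 27 lower, and Mycn 43, of which 10 were higher and 13 lower. Myeloid factors flanked 154 regions with 30 higher and 32 lower, and immediate early and TGF-beta feedback genes 176 with 42 and 49. Fetal program genes flanked 40 with 6 and 12, and erythroid and megakaryocyte factors 18 with 8 and 3.

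Within the liver, no distal region was called between E16.5 FL and E12.5 FL. A single region of the 99005 tested (0.00101%) was called by edgeR's quasi-likelihood test with Benjamini-Hochberg adjustment, inside a gene. At an unadjusted p under 0.05 there were 991 distal regions and 7190 regions in all. DESeq2 called 19 regions in all and none of them distal. The median log2 fold change of distal regions was 0.01 (−0.07 with loess offsets). Leaving out E16.5 FL 1 gave 2 distal calls.

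From fetal liver to the marrow around birth, most of the called distal regions were higher. Over all regions, 8.03% were called between perinatal BM and E16.5 FL, 6.66% higher and 1.36% lower, and of the distal regions 793 (6.53%) were, 617 (5.08%) higher and 176 (1.45%) lower. The median log2 fold change was −0.05, beside −0.04 for all regions. With loess offsets it was 0.15, beside −0.01. They called 178 distal regions higher and 120 lower, beside 0.937% higher and 0.873% lower over all regions, and 170 of the 617 (27.6%) remained. Leaving out perinatal BM 2 gave 247 higher and 72 lower, and leaving out E16.5 FL 1 gave 253 and 92.

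The 5 named regions that were higher included a pair near Zfp36l2, an RNA-binding protein that destabilises messages and is needed for blood stem cells. The region chr17:84116200-84116851, 67.4 kb from the gene, had 61.6, 96.8 and 68.8 CPM in perinatal BM and 12.8, 19 and 18.6 CPM in E16.5 FL (log2 fold change 2.18, SE 0.22, edgeR adjusted p = 4.2e-09). A second region of the same desert, chr17:83990305-83991003, had 68.8, 73.1 and 64.8 CPM in perinatal BM and 25.1, 30.8 and 36.4 CPM in E16.5 FL (1.16, SE 0.17). By the naming rule, every perinatal BM library was above every E16.5 FL library in both. Between Bcl6, a repressor of B cell differentiation, and Lpp, chr16:24151189-24151715 had 51.4, 60.2 and 50.5 CPM in perinatal BM and 22.1, 21.0 and 14.2 CPM in E16.5 FL (1.5, SE 0.19).

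The lncRNA start at Gm32164, whose window is printed above, had 42.7, 54.5 and 49.3 CPM in perinatal BM and 16, 16.3 and 22.2 CPM in E16.5 FL (log2 fold change 1.43, SE 0.19, edgeR adjusted p = 2.2e-06). As the naming rule required, this region was higher in all 3 perinatal BM libraries. Its flanking genes are Eed, a subunit of the Polycomb complex PRC2, and Picalm, a clathrin adaptor. The region chr10:96370797-96371418, 246 kb from the antiproliferative gene Btg1, had 38.9, 53.4 and 31.0 CPM in perinatal BM and 6.39, 15.8 and 13.0 CPM in E16.5 FL (1.82, SE 0.25).

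The 5 regions named as lower in perinatal BM were all among the 17 highest or in the first 3.5 Mb of a chromosome. The region chr11:109011584-109012154, beside Axin2, had 334, 229 and 294 CPM in perinatal BM and 600, 640 and 640 CPM in E16.5 FL (log2 fold change −1.13, SE 0.17). The region chr3:5860344-5860896 had 291, 186 and 247 CPM in perinatal BM and 481, 515 and 489 CPM in E16.5 FL (−1.04, SE 0.16). Both were highest in E12.5 PL, with 1050, 619 and 1332 CPM and with 903, 550 and 1007 CPM. The others were chr18:3004620-3006156 (−1.51), chr16:3114352-3115770 (−1.65) and chr6:3201211-3201733 (−1.36), all near a chromosome start. Without the highest regions and the chromosome starts, 109 distal regions were lower, against 176 with them.

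Among lists of flanking genes, lymphoid factors had 33 of 376 distal regions higher (8.78%) and 3 lower, and immediate early and TGF-beta feedback genes 16 of 176 (9.09%) and 2, beside 6.66% and 1.36% of all regions. Stem cell factors had 17 of 313 higher (5.43%) and 3 lower, myeloid factors 9 of 154 (5.84%) and 2, fetal program genes 5 of 40 and none, and erythroid and megakaryocyte factors none of 18 in either direction. Of the clusters, 48 had at least 3 members higher, 43 of them with none lower. At least 3 members were lower in 11 clusters, all with none higher. The Igh cluster had sums of 517, 474 and 481 CPM in perinatal BM and 316, 312 and 345 CPM in E16.5 FL, with 9 members higher (2 with loess offsets). The cluster beside Pmepa1, an inhibitor of TGF-beta signalling (23 regions, chr2:173326628-173470232), had 195, 274 and 230 CPM in perinatal BM and 145, 106 and 156 CPM in E16.5 FL, with 8 higher (3 with loess offsets). Marrow and liver libraries did not overlap in either. The Id2 cluster (42 regions, chr12:25155360-25517208) had 383, 499 and 408 CPM in perinatal BM and 243, 306 and 307 CPM in E16.5 FL, with 7 higher, of which the fit with loess offsets called 1.

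Around Cxcr4, the receptor of the marrow chemokine CXCL12 that holds stem cells in the marrow, a cluster of 14 regions (chr1:128675425-128875698) was chosen after its values were seen. It had 155, 194 and 178 CPM in perinatal BM and 97.8, 94.1 and 103 CPM in E16.5 FL, without overlap, and 6 members were called higher (4 with loess offsets). In stage order its mean was 51.1 CPM in E12.5 PL, 92.2 in E12.5 FL, 98.2 in E16.5 FL, 176 in perinatal BM and 168 in 8w BM. The start of Cxcr4 had 31.4 ± 7.3 CPM in perinatal BM and 21.9 ± 6.1 CPM in E16.5 FL (log2 fold change 0.51, edgeR adjusted p = 0.11).

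Between neonatal and young adult marrow, more distal regions were lower in the adults than higher. Over all regions 7.47% were called between 6w and 8w BM and perinatal and 1w BM, 3.69% higher and 3.78% lower in the adults. Of distal regions 1058 (8.71%) were, 400 (3.29%) higher and 658 (5.42%) lower, and the median log2 fold change was −0.08. Of the comparisons with calls this one moved least with scaling: 37.8% of the calls were higher as fitted, and 30.5 to 37.9% with size factors, total counts, loess offsets or DESeq2. With loess offsets 382 of the 400 and 639 of the 658 were called again. Near intergenic regions split otherwise, with 955 higher and 775 lower. By distance to a gene, 4.47% were lower at 50 to 100 kb, 5.34% at 100 to 200 kb, 6.07% at 200 to 500 kb and 10.3% beyond 500 kb.

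The adult loss of smallest p was at chr16:69796244-69796790, in the lncRNA 4930428D20Rik and 60.4 kb from Speer2. In 6w and 8w BM its lowest, median and highest levels were 3.18, 5.12 and 6.95 CPM, and in perinatal and 1w BM 19.8, 30.3 and 46.6 CPM (log2 fold change −2.55, SE 0.22, edgeR adjusted p = 1.2e-13). The naming rule required that the groups not overlap. The same region had 26.3, 56.2 and 39.5 CPM in E12.5 FL and 18.2, 20.3 and 24.9 CPM in E16.5 FL, so it was open in fetal liver too.

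The region chr14:28836962-28837696, in the desert between Wnt5a, a Wnt ligand, and Cacna2d3, had 1.05, 2.27 and 3.68 CPM in 6w and 8w BM and 10.4, 13.7 and 26.8 CPM in perinatal and 1w BM (lowest, median and highest, log2 fold change −2.75, SE 0.26). Beyond Tenm3, chr8:49946836-49947711 had 9.66, 11.8 and 16.9 CPM in 6w and 8w BM and 29.9, 35.0 and 47.3 CPM in perinatal and 1w BM (−1.6, SE 0.17). Beyond Auts2, chr5:133142355-133143205 had 1.28, 3.51 and 5.01 CPM in 6w and 8w BM and 8.23, 15.5 and 27.6 CPM in perinatal and 1w BM (−2.37, SE 0.26). The adult libraries were below all neonatal libraries in each, as the naming rule required. The fifth, chr18:25883308-25883818 beyond Celf4, had medians of 2.63 CPM in 6w and 8w BM and 14.2 CPM in perinatal and 1w BM (−2.39). All 5 were open in fetal liver, with medians of 11.5 to 25.6 CPM there.

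Of the regions higher in the adults, 5 are named. At chr17:45244817-45245421, between Supt3, a subunit of the SAGA coactivator, and Cdc5l, lowest, median and highest levels were 11.3, 15.4 and 17.2 CPM in 6w and 8w BM and 1.5, 1.59 and 2.85 CPM in perinatal and 1w BM (log2 fold change 3.09, SE 0.28, edgeR adjusted p = 1.8e-12). Near Mgat5, which builds branched sugar chains on surface proteins, chr1:127118008-127118518 had 6.85, 13.3 and 22.1 CPM in 6w and 8w BM and 0.503, 1.07 and 3.49 CPM in perinatal and 1w BM (3.25, SE 0.32). The groups did not overlap, again by the naming rule. The others were chr4:40329580-40330215 near Ndufb6 (1.75, SE 0.21), chr15:73901556-73902148 (1.9, SE 0.23) and chr9:115708349-115708961 between Stt3b and Gadl1 (1.35, SE 0.17), with adult medians of 19.3, 15.2 and 29.9 CPM and neonatal medians of 5.53, 4.00 and 11.3 CPM.

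The desert between Klf14 and Mkln1, which holds the lncRNA Lncpint, had higher levels in older groups. Its 35 regions (chr6:31011345-31325192) had summed levels of 236 ± 25 CPM in E12.5 PL, 217 ± 31 in E12.5 FL, 260 ± 14 in E16.5 FL, 313 ± 54 in perinatal BM, 360 ± 25 in 1w BM, 392 ± 28 in 3w BM, 431 ± 24 in 4w BM, 453 ± 31 in 6w BM and 436 ± 47 in 8w BM (SD). In adult against neonatal marrow 8 members were called higher and none lower, with and without loess offsets. Its lowest adult library, 385 CPM, was just below the highest neonatal library, 388 CPM.

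This desert holds the region next to the microRNA genes Mir29a and Mir29b-1, whose mature sequences are printed above. The region chr6:31072015-31072573 lies 9.27 kb from the Mir29a hairpin. Its lowest, median and highest levels were 10.0, 15.1 and 24.0 CPM in 6w and 8w BM and 5.64, 6.72 and 10.5 CPM in perinatal and 1w BM, a small overlap of the groups. The log2 fold change was 1.07 (SE 0.21, edgeR adjusted p = 0.00038), and 1.08 with loess offsets. The region chr14:115040071-115041570, 2.1 kb from the Mir17 hairpin, had 63.4, 60.6 and 62.8 CPM in E12.5 FL and 108, 90.5 and 88.2 CPM in E12.5 PL. Its log2 fold change of −0.62 (edgeR adjusted p = 0.001) was −0.02 with loess offsets (adjusted p = 0.94), and in marrow over fetal liver its 0.35 was −0.26 with loess offsets. In all, 54 microRNA genes lay within 10 kb of 68 distal regions.

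Clusters with adult losses included Dusp10 to Hlx (43 regions, chr1:184140491-184675969), beside a homeobox gene of blood and gut development. In 6w and 8w BM its sums were 158, 166 and 177 CPM (lowest, median and highest), and in perinatal and 1w BM 188, 211 and 222 CPM, with 7 members lower. The cluster beside Hmga2, a chromatin protein of the fetal stem cell program (23 regions, chr10:120552255-120720397), had 163, 192 and 210 CPM in 6w and 8w BM and 223, 255 and 283 CPM in perinatal and 1w BM, with 5 lower. The adult and neonatal libraries did not overlap in either. The start of Hmga2 was lower too (log2 fold change −0.67, edgeR adjusted p = 0.00023), at 26.3 ± 4.4 CPM in 8w BM and 42.8 ± 5.0 CPM in perinatal BM. In fetal liver the Hmga2 cluster had a median sum of 170 CPM, below the neonatal marrow, so the distal regions and the gene start differed in their course.

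Of the 40 distal regions flanking fetal program genes, 6 (15.0%) were lower in the adults and none higher, beside 3.78% lower and 3.69% higher of all regions, with a median of −0.42. Of these 40, 24 flank Hmga2, 11 Sox17 and 5 Dlk1, and of the 6 that were lower 5 flank Hmga2 and 1 Dlk1. For lymphoid factors 23 of 376 were lower and 13 higher, and for stem cell factors 14 of 313 lower and 11 higher.

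Marrow of all stages was set against fetal liver of both. Of all regions 39.9% were called, 20.0% higher in marrow and 19.9% lower. Of distal regions 4684 (38.6%) were, 1704 (14.0%) higher and 2980 (24.5%) lower, with a median log2 fold change of −0.26 beside −0.11 for all regions and 0.2 for gene ends. The balance depended on scaling: 36.4% of distal calls were higher as fitted, 29.6% with size factors and 19.7% with total counts, but 55.1% with loess offsets, where the median was −0.01 and 9.72% of all regions were higher and 10.9% lower. With loess offsets 1103 of the 1704 higher regions (64.7%) and 1018 of the 2980 lower regions (34.2%) were called again. By level, the median ran from −1.2 in the lowest step to 0.63 in the highest for distal regions, and from −1.15 to 0.59 for near intergenic regions. The limit that the count filter sets on the lowest steps holds here too, and the counts of calls include those steps. In the lowest step 43.8% of 1999 distal regions and 44.3% of near intergenic regions were called lower in marrow.

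Distance again went with the direction. The share lower in marrow was 21.7% at 50 to 100 kb, 23.4% at 100 to 200 kb, 28.5% at 200 to 500 kb and 36.0% beyond 500 kb, and 7.04, 7.99, 12.1 and 18% with loess offsets. Without the highest regions and the chromosome starts it was 21.4, 22.8, 26.9 and 35.4%.

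The Zfp36l2 desert led the regions higher in marrow as well. Lowest, median and highest levels of chr17:84116200-84116851 were 60.5, 78.1 and 114 CPM in 17 marrow libraries and 12.8, 15.8 and 19 CPM in 6 fetal liver libraries (log2 fold change 2.35, SE 0.14, edgeR adjusted p = 6e-20). Between Otud7a and Klf13, a zinc finger factor, chr7:63816289-63817068 had 21.8, 51.7 and 96.6 CPM in marrow and 6.57, 8.8 and 11.9 CPM in fetal liver (2.42, SE 0.18). The start of Klf13 was higher too, by 1.17 (edgeR adjusted p = 3.2e-14) and by 0.49 with loess offsets. In the Cxcr4 cluster, chr1:128705052-128705682 had 29.0, 41.5 and 53.3 CPM in marrow and 6.34, 11.9 and 15.4 CPM in fetal liver (1.81, SE 0.15), and the start of Cxcr4 was higher by 0.88 (edgeR adjusted p = 2.4e-08) and by 0.43 with loess offsets. By the naming rule, no marrow library overlapped a liver library at these distal regions.

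Regions lower in marrow included chr3:8245091-8246733, in the desert between the cytokine gene Il7 and Stmn2, with 26.7, 56.8 and 112 CPM in marrow and 155, 215 and 275 CPM in fetal liver (log2 fold change −1.77, SE 0.13). The region chr1:95451727-95452280, between Fam174a and St8sia4, had 10.1, 19.5 and 34.0 CPM in marrow and 56.0, 73.0 and 82.4 CPM in fetal liver (−1.88, SE 0.14). The region chr12:23188999-23190042 had 1.06, 3.22 and 10.7 CPM in marrow and 14.5, 17.6 and 28.1 CPM in fetal liver (−2.49, SE 0.18). It was highest in E12.5 PL, with 37.8, 32.4 and 21.5 CPM. In each, all marrow libraries were below all liver libraries, as the naming rule required.

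At chromosome starts the lower signal in marrow covered whole clusters. Every one of the 19 regions at the start of chromosome 3 (chr3:3001081-3233352), 17 at the start of chromosome 9 (chr9:3000190-3038385), 13 at chr16:3231428-3420474 and 11 at chr4:3049935-3090910 was called lower in marrow, and 17, 17, 13 and 11 were with loess offsets. The chromosome 3 cluster had lowest, median and highest sums of 35.9, 70.0 and 159 CPM in marrow and 183, 206 and 279 CPM in fetal liver. Perinatal BM 1, at 159 CPM, was the nearest to the liver libraries there. That library also had the highest share of counts in chromosome starts among marrow libraries, 1.08%. Over all clusters, 307 had at least 3 members lower in marrow, 170 of them with none higher. At least 3 members were higher in 194 clusters, 51 of them with none lower. These cluster counts are as fitted, and the balance of distal calls depended on scaling.

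Clusters with members higher in marrow were led by Igh, with sums of 408, 467 and 581 CPM in marrow and 297, 314 and 391 CPM in fetal liver, and 24 members higher, with and without loess offsets. A second Igh cluster (18 regions, chr12:114378624-114657601) had 94.0, 120 and 144 CPM in marrow and 43.2, 64.2 and 73.3 CPM in fetal liver, with 12 higher. Over the locus the summed level of 111 distal regions was 228 ± 33 CPM in E12.5 PL, 583 ± 110 in E12.5 FL, 566 ± 26 in E16.5 FL, 809 ± 38 in perinatal BM, 815 ± 83 in 1w BM and 739 ± 43 in 8w BM. Igk went the other way in this comparison, with no region higher and 8 of 15 lower in marrow. Tcra/Tcrd had 5 higher and 5 lower of 52.

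The Klf14 to Mkln1 desert had 18 of 35 members higher in marrow and none lower (14 and none with loess offsets), with sums of 250, 405 and 486 CPM in marrow and 181, 243 and 274 CPM in fetal liver, which overlap. Around Id2, 21 of the 51 distal regions that flank the gene were higher in marrow and 5 lower. The Id2 cluster had 350, 403 and 499 CPM in marrow and 243, 281 and 307 CPM in fetal liver, without overlap. The start of Id2 had 43.4 ± 5.1 CPM in perinatal BM and 27.1 ± 4.7 CPM in E16.5 FL, and was higher in marrow by 0.6 (edgeR adjusted p = 9.3e-06), which was 0.09 with loess offsets. In E12.5 FL against PL the Id2 start was lower, at −0.97 (edgeR adjusted p = 1.2e-05) and −0.54 with loess offsets, while 20 members of its cluster were higher and 4 lower (12 and 2 with loess offsets).

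**Figure D5:**
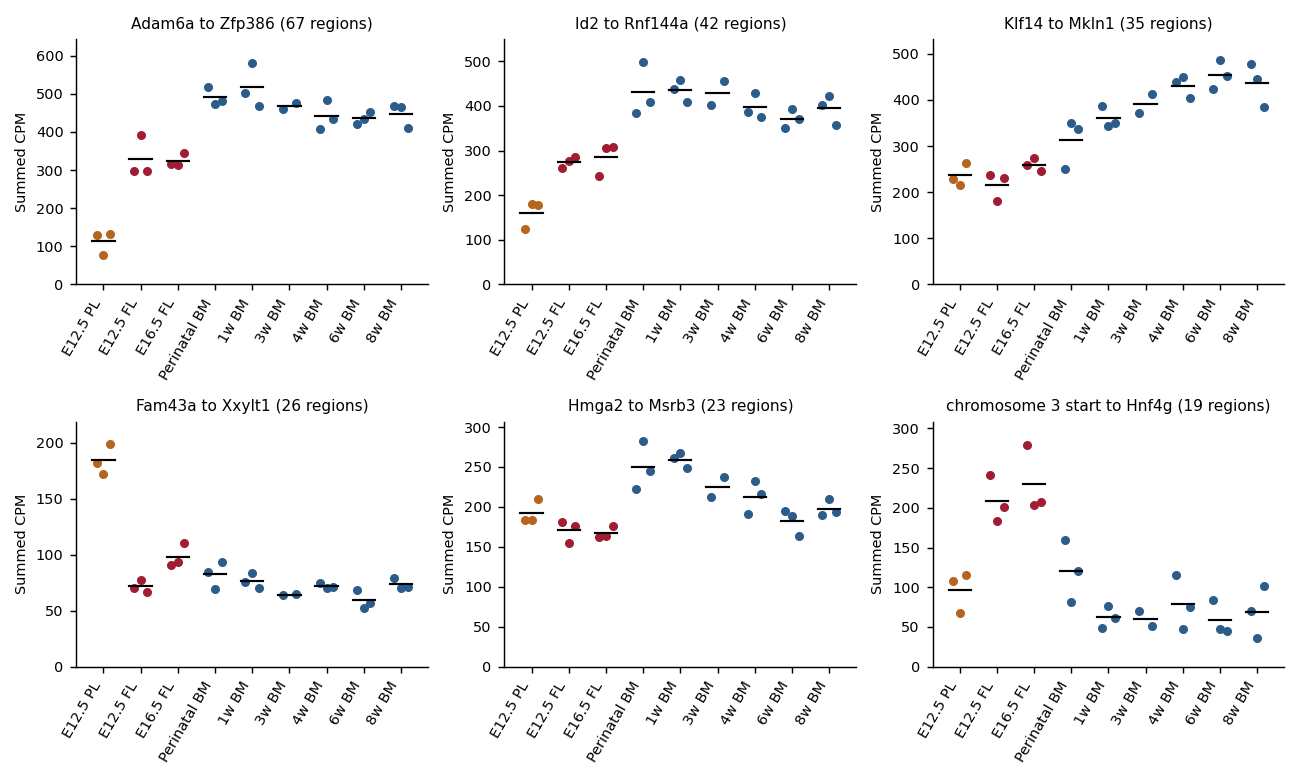
Summed CPM of 6 clusters of distal regions in each of 26 libraries by group; points are libraries and short lines are group means. The Igh cluster (Adam6a to Zfp386) stands at 77.0 to 131 CPM in E12.5 PL and 408 to 581 CPM in marrow, and the cluster at the start of chromosome 3 at 183 to 279 CPM in fetal liver and 35.9 to 159 CPM in marrow.

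Around the listed genes, lymphoid factors had 73 higher (19.4%) and 63 lower (16.8%) of 376 regions in marrow over fetal liver, near the 20.0% and 19.9% of all regions. Myeloid factors had 34 and 27 of 154, stem cell factors 54 and 59 of 313, and immediate early and TGF-beta feedback genes 35 and 36 of 176. List medians were −0.2 to −0.03, beside −0.11 for all regions. Sox4 had 15 higher and 3 lower of 51, Zeb2 10 and 3 of 41, Maf 10 and 4 of 40, and Myc 7 and 15 of 62.

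Over the 9 groups as a whole, 64.4% of all regions and 66.8% of distal regions (8113) were called by the edgeR test of any difference between groups. Without the E12.5 PL libraries 3509 distal regions were called. The share of all regions called in that fit was not set beside it, so the lower count is not read as a trait of the class. The group in which a distal region was highest was E12.5 PL for 29.8%, against 30.0% of near intergenic regions.

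A few distal regions sat at starts of lncRNA genes, 367 regions at 372 genes. Their median level was 5.69 CPM against 3.27 CPM for the other distal regions, and they had a peak in a median of 6 libraries against 2. In E12.5 FL over PL 23.4% of them were higher and 29.4% lower, against 30.3% and 21.5% elsewhere and 23.1% and 26.4% of all regions. In marrow over fetal liver these were 26.4% and 22.3%, against 13.6% and 24.6% elsewhere and 20.0% and 19.9% of all regions. The marrow medians, −0.04 at starts and −0.27 elsewhere, were −0.01 and −0.0 with loess offsets. In E12.5 FL over PL the medians with loess offsets were −0.11 at starts and 0.26 elsewhere. The part of level in these differences was not tested. The start windows of distal lncRNA genes (430 windows) were compared with all 32817 windows in the RefSeq table, counting both strands. The GATA site AGATAA was in 17.9% of distal windows and 11.2% of all windows. The RUNX site TGTGGT was in 25.1% of distal windows and 16.8% of all windows. The AP-1 site TGACTCA was in 9.3% of distal windows and 5.2% of all windows. The core CCCTC, part of the CTCF site, was in 60.9% of distal windows and 66.0% of all. The median share of G and C was 49.5% in distal windows and 52.7% in all, so the windows differ in base composition too. These windows are not the distal regions themselves, whose sequence was not read.

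In the cultured cells, distal regions were compared between media at 2 h. The cultured libraries were counted over regions of their own, and 8787 distal members were joined to a region that overlapped by 50% of each and was tested. Of all 145129 regions tested, 0.56% were called between co-SHI and SHI, 0.228% higher and 0.332% lower, and of the distal members 107 (1.22%) were, 49 higher and 58 lower, with 1521 at an unadjusted p under 0.05. The median log2 fold change was 0.04. These counts rested on single libraries: leaving out co-SHI 3 gave 211 higher and 200 lower. Leaving out SHI 1 gave 20 and 43, SHI 2 gave 4 and 4, co-SHI 1 gave 2 and 13, and co-SHI 2 gave 5 and 29. The 145129 regions also include those with no match in the developmental series, so 0.56% and 1.22% are shares of unlike sets.

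The region of smallest p among those lower was chr13:110538103-110538997, 138 kb from Plk2, a stress-responsive kinase, with 14.4, 12.3 and 17.1 CPM in co-SHI and 25, 24.6 and 30.8 CPM in SHI (log2 fold change −0.89, SE 0.14, edgeR adjusted p = 0.00082). The region between Fam174a and St8sia4 that was high in fetal liver had 12.1, 13.2 and 11.4 CPM in co-SHI and 35.3, 37.6 and 13.8 CPM in SHI (−1.22, SE 0.2). At chr9:3035713-3036272, a chromosome start, co-SHI had 12.8, 23.9 and 10.4 CPM and SHI 54.9, 95.3 and 14.2 CPM, so SHI 3 lay within the co-SHI range. Higher in co-SHI were chr17:13552663-13553219, in the lncRNA 2700054A10Rik, with 131, 123 and 73.7 CPM in co-SHI and 65.1, 72.5 and 53.5 CPM in SHI (0.79, SE 0.13), chr5:68735087-68735707 (0.8, SE 0.14) and chr10:126501930-126502793 (0.65, SE 0.12).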

How the data were processed

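Nuclei were treated with Tn5 and fragments amplified in 10 PCR cycles, per the labels' protocols. The tools named in the submitters' processing notes are HOMER, DiffBind, deepTools, MACS2 and Trim Galore, with the build mm10. How reads were aligned, how reads that map to several places and duplicates were handled, and whether a Tn5 offset was applied is not given in the sources used here. Signal at repeats depends on these steps. The count tables deposited by the authors hold raw counts per region. The peak lists the authors deposited per library hold −log10 p and −log10 q values, used to count and filter peaks. Reads carry no molecular identifiers.

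Protein-coding spans (20661 on the autosomes) came from RefSeq, assembly GRCm38.p6, with coordinates counted from 1. Regions passing filterByExpr (minimum count 10) were tested, with TMM scaling, by edgeR's quasi-likelihood test (edgeR 4.0.16, R 4.3.3) in 1 fit of 26 libraries with 9 group means, adjusted over all regions by Benjamini-Hochberg at 0.05. The cultured libraries were fitted alone, and 3 columns of their table were not used. Marrow was the mean of 6 groups and fetal liver of 2. Shares were compared by two-sided exact permutation tests. In simulated data for perinatal BM over E16.5 FL (97968 regions tested), 40% of 100 regions changed 2-fold and 92% of 100 changed 4-fold were recovered, none with the wrong sign. The changed regions were drawn only from those with a mean level above the median of all regions. The library 8w BM 3 has a stage label of E12.5 and was grouped by its title. The labels do not say that libraries came from separate animals, so p-values reflect only the spread between these libraries, which may be technical.

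Regions named per comparison were those called whose libraries did not overlap between groups, with a size of 1 or more on the log2 scale and a mean above the median of all tested, the 5 of smallest p in each direction (for co-SHI over SHI, the 3 of smallest p called). Clusters named were the 8 largest and, per comparison, up to 3 with most called members, at least 3 and all in 1 direction. The members and gene lists were chosen with earlier results of these data known. Alternatives were DESeq2 1.42.0, its size factors, total counts, no filter, loess offsets of limma 3.58.1 (span 0.3, 3 iterations), the compared groups alone, a replicate block, other distances and leaving out each library. Other steps used SciPy 1.17.1, numpy 2.4.6, pandas 2.3.3 and matplotlib 3.10.9 in Python 3.11.15.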

Additional observations from a re-analysis of the deposited data

Results flagged for a closer look

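In 33 groups of libraries, the gap of the lowest or highest library to its neighbour was set against the whole range. Each group lay behind a named region or a distal share of counts. Chance passes about 1 in 20 such groups. In the perinatal and 1w BM libraries, 1w BM 2 had 2.85 CPM at chr17:45244817-45245421 (between Supt3 and Cdc5l), while the others had 1.5 to 1.74 CPM, a gap of 0.817 of the range against a critical value of 0.625. The same library had 11.4 CPM at chr4:40329580-40330215 (near Ndufb6), while the others had 4.41 to 5.81 CPM, a gap of 0.799. Both regions were called higher in 6w and 8w BM, and 1w BM 2 has the lowest total count of the series, 2845113.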

How the results depend on the processing

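For the 4 developmental comparisons with calls, the 40 results for regions named by rule kept their direction and call in all 750 alternative values, loess offsets included. These regions were picked from the same data for small p, large change and no overlap. Their stability was largely set by that choice and says nothing of other distal regions. The 6 regions named in cultured cells were not rerun, and the Mir17 region lost its call in E12.5 FL over PL and turned sign in marrow with loess offsets. Counts of calls were less stable. With loess offsets 2420 distal regions were higher and 1403 lower in E12.5 FL over PL, 178 were higher in perinatal BM over E16.5 FL, 1099 were lower in marrow over fetal liver and 5334 were called over any group. The medians of E16.5 FL over E12.5 FL and of perinatal BM over E16.5 FL changed sign, to −0.07 and 0.15. Loess offsets remove differences that follow the level of signal, whatever their origin. With total counts 291 regions were higher in perinatal BM and 1085 in marrow, and a fit of the compared groups alone called 387 higher in perinatal BM. Without the highest regions and the chromosome starts 109 were lower in perinatal BM. Without the E12.5 PL libraries 3509 were called over any group, and DESeq2 called 25 lower in co-SHI. For the counts of 5334 and 3509, the share of all regions called in the same fits was not compared. The cause of these changes in counts was not tested.

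Other distances change the class itself. At 25 kb 4118 regions were lower in E12.5 FL over PL, 622 higher in the adults and 2671 higher in marrow. At 100 kb the counts higher and lower were 2282 and 1455 for E12.5 FL over PL, 216 and 428 for the adults, 926 and 1861 for marrow, and 346 higher for perinatal BM. With spans of every gene, a class of 2666 regions, share differences were 0.487 points for E12.5 FL minus PL (2.06 for the main class), −0.14 for perinatal BM minus E16.5 FL (−1.82), −0.124 for adult minus neonatal marrow (−0.559) and −0.377 for marrow minus fetal liver (−2.44). That of E16.5 FL and E12.5 FL, 0.584 points, was −0.0863 with spans of every gene, −0.000908 without the highest regions and −0.0907 also without the chromosome starts, none of them distinguishable from 0 (exact permutation p of 0.8 to 1.0).

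Leaving out each library gave share differences of 1.66 to 2.41 points for E12.5 FL minus PL, 0.201 to 0.977 for E16.5 FL minus E12.5 FL, −2.23 to −1.44 for perinatal BM minus E16.5 FL, −0.794 to −0.281 for adult minus neonatal marrow and −2.59 to −2.23 for marrow minus fetal liver. Counts higher and lower ran from 2659 to 3483 and 2041 to 2266 for E12.5 FL over PL, 0 to 2 and 0 for E16.5 FL over E12.5 FL, 247 to 544 and 72 to 193 for perinatal BM, 279 to 386 and 493 to 613 for the adults, 1448 to 1717 and 2230 to 3137 for marrow, and 2 to 211 and 4 to 200 for co-SHI. Same-numbered libraries correlated little: deviations correlated above 0.1 in 5 of 100 such pairs (median 0.01, beside −0.01 for other pairs). Yet 13 of 26 libraries correlated best with their own number. Whether replicate numbers mark pairs was not tested. With the replicate block the counts were 3642 and 2555, 649 and 191, 420 and 679, and 1703 and 2941 for E12.5 FL over PL, perinatal BM, the adults and marrow, 65 and 81 for co-SHI and 8101 over any group, and the marrow share difference was −2.45 points.

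The median level of the class is 3.3 CPM, and whether depth limits its calls was not tested. The simulation of perinatal BM over E16.5 FL recovered 40% of 2-fold and 92% of 4-fold changes. Its changed regions were of every class, but only from those with a mean level above the median of all regions. The median distal region lies below that level, so these rates cannot say how often changes in this class are found.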
